A study of Mus musculus with 6 samples.

Results

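The genes described are the enzymes that write, copy and oxidise DNA methylation together with their closest cofactors: Dnmt3a, Dnmt3b, Dnmt3l, Dnmt1, Uhrf1, Tet1, Tet2 and Tet3. They were chosen by name, and every probe set whose platform annotation gives one of these 8 symbols was taken, which gave 20 of the 45101 probe sets on the array and 8 of the 18193 genes that have a probe set of their own. RNA of whole testes was hybridised to 6 Affymetrix arrays, 3 from SCARKO-jsd mice and 3 from jsd mice, all 12 weeks old. Both genotypes carry the jsd mutation of Utp14b, in which adult tubules keep spermatogonia and Sertoli cells while later germ cells are few, and SCARKO-jsd mice carry in addition a conditional knockout in Sertoli cells, with a Cre driver not given in the sources used here. The question is how transcripts of a testis with few later germ cells depend on that knockout. Each value is log2 expression after RMA, each difference is SCARKO-jsd minus jsd, and the number of arrays limits the precision, with a median SE of 0.12 for a log2 fold change. Nothing says which mouse gave each RNA, so p-values measure only the spread among these samples.

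In mammals, methyl groups are placed on the cytosine of CpG pairs. Dnmt3a and Dnmt3b methylate new sites, Dnmt3l has no catalytic activity of its own and stimulates both, and Dnmt1 copies the pattern to the new strand after replication, guided by Uhrf1, which binds DNA methylated on a single strand. Tet1, Tet2 and Tet3 oxidise the methyl group, a step toward its removal. In mouse testis the methylation of the male germ line is set before birth, in prospermatogonia, where Dnmt3a and Dnmt3l are required, and male mice without Dnmt3l lose their germ cells after birth.

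The start sites of Dnmt3l are shown because this gene had the largest difference among the enzymes, and 1 CpG-rich window each of Uhrf1 and Dnmt1 to set beside them. RefSeq (GRCm38.p6) matched all 8 genes and gave 15 windows for them, each from 250 bases before a transcription start to 50 bases after it. CpG pairs are in capitals, and windows are numbered along the direction of transcription.
Dnmt3l window 1, chr10:78042037-78042336, plus strand: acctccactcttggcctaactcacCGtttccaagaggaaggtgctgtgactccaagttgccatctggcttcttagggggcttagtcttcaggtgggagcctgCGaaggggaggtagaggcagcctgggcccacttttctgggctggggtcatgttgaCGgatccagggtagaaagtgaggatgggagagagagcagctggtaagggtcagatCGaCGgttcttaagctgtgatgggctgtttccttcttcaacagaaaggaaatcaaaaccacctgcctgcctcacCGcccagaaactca
Dnmt3l window 2, chr10:78049592-78049891, plus strand: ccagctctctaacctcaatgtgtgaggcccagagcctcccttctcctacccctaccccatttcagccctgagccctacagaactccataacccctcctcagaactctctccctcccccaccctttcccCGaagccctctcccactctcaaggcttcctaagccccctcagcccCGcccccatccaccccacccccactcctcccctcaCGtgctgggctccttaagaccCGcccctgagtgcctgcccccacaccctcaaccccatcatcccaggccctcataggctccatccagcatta
Dnmt3l window 3, chr10:78055085-78055384, plus strand: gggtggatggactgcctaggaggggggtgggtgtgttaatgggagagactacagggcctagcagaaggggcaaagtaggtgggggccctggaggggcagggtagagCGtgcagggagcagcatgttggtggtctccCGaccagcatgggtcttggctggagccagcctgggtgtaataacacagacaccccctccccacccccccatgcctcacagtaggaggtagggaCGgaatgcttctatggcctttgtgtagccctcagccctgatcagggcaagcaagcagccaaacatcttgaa
Uhrf1 window 2, chr17:56304063-56304362, plus strand: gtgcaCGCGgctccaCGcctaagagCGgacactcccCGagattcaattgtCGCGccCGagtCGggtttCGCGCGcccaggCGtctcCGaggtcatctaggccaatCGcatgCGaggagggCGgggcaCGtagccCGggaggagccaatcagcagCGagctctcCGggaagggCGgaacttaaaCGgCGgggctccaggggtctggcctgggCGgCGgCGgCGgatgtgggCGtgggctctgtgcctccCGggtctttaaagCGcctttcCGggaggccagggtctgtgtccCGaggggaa
Dnmt1 window 3, chr9:20952574-20952873, minus strand: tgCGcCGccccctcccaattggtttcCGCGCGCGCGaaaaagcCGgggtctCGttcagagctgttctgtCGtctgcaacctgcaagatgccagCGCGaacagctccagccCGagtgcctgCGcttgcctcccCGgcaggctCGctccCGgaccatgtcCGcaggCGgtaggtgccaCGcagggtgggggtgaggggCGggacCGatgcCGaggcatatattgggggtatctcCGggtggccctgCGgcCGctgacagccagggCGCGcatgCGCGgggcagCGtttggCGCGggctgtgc
The windows of Dnmt3l held 6, 4 and 3 CpG pairs, against a median of 7 over all 32841 windows of the genome's genes and of 18 over the 15 windows of the enzymes. Uhrf1 window 2 and Dnmt1 window 3 held 33 each, as many as or more than 92.3% of all windows. The windows of these genes not printed held fewer, 12 in Uhrf1 window 1, 12 in Dnmt1 window 2 and 2 in Dnmt1 window 1, which is fewer than in any Dnmt3l window. The richest were the single window of Tet2 with 57 and the second window of Dnmt3a with 47. The E2F motifs TTTCGCGC, TTTGGCGC and TTTCCCGC were searched on both strands and counted with overlaps between strands allowed. Matches lay in 2 of the 15 windows, Uhrf1 window 2 and Dnmt1 window 3, both printed, and in 1.8% of all windows. Of 28 windows of germ line genes with promoters methylated in somatic cells, with a median of 20 CpG pairs, 7.1% held a match. The place on the transcript that each probe set reads was not analysed here, so the array values do not show which start was used.

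One array stood apart. SCARKO-jsd 2 correlated with the other arrays at 0.965 to 0.975 across probe sets, which are not independent replicates, while the other 5 correlated at 0.991 to 0.996 among themselves. Its gap between the 3' and 5' control probe sets was 1.66 log2 units for beta-actin and 0.64 for Gapdh, against 0.70 to 0.98 and -0.285 to -0.10 in the other 5. The pyruvate carboxylase gap was also widest there (3.45, against 2.82 to 3.16), while the transferrin receptor gap, 1.78, lay within the range of the others, 1.68 to 2.10. SCARKO-jsd 2 was the highest or the lowest of the 6 arrays for 17 of the 20 probe sets of the enzymes and for 58.7% of all probe sets, and the part of RNA quality in these values was not tested. Values for the enzymes are therefore also given without it. Rhox5, which androgen switches on in Sertoli cells, was lower on each array labelled SCARKO-jsd (5.44, 6.11 and 5.84) than on each labelled jsd (10.26, 10.43 and 9.74), and Utp14b, mutated in both genotypes, had a log2 fold change of 0.078 ± 0.18 (SE).

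No probe set of the DNA methylation enzymes differed between the genotypes in limma after Benjamini-Hochberg adjustment (threshold 0.05). The 45037 probe sets that are not controls were tested together, and 126 of them, 0.280%, passed, 56 higher and 70 lower in SCARKO-jsd testes, so 0 of 20 is near the background. With each array centred on its median 63, or 0.140%, passed, 35 higher and 28 lower, and again 0 of the 20. At an unadjusted p under 0.05, limma gave 4 of the 20, against 10.3% of all probe sets. Without SCARKO-jsd 2 it gave 1 of the 20, against 13.7% of all probe sets. The arrays of the genotypes did not overlap for 6 of the 20, 4 higher and 2 lower, where 16.9% of all probe sets did not overlap (9.99% higher and 6.93% lower). In all, 11 of the 20 were higher in mean, against 53.2% of all probe sets, and 9 lower, with a median log2 fold change of 0.11, against 0.01 over all probe sets. The median size regardless of sign was 0.25, against 0.11. These medians and the counts of overlap and direction include SCARKO-jsd 2.

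**Figure D1:**
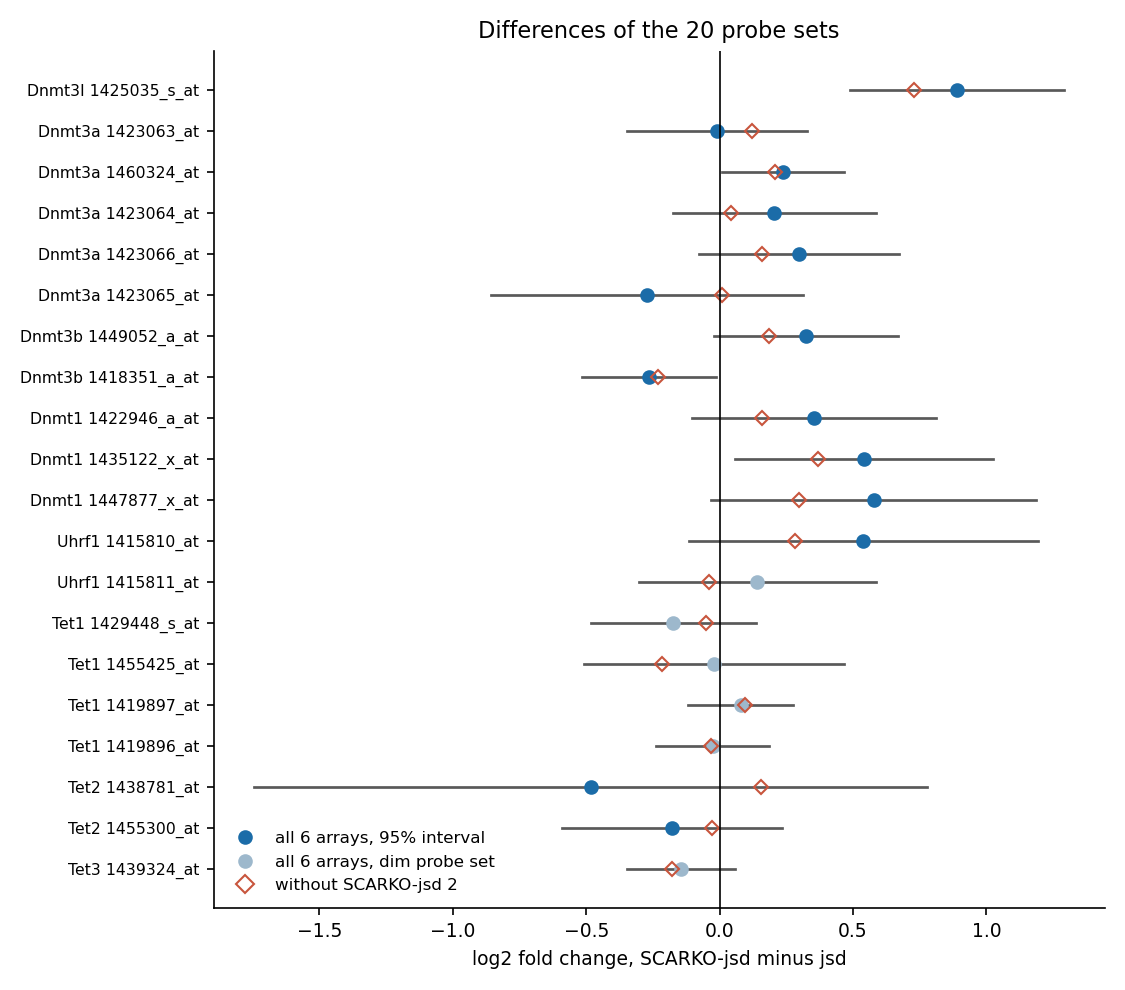
Log2 fold change of each of the 20 probe sets (filled circles, pale where the probe set is dim, SCARKO-jsd minus jsd, with the limma 95% interval) and the same without SCARKO-jsd 2 (open diamonds). Dnmt3l lies farthest from 0 at 0.89, and the widest interval is that of Tet2 1438781_at, from -1.75 to 0.78.

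Dnmt3l, the cofactor of the new-site methyltransferases, showed the largest difference. Its 1 probe set, 1425035_s_at, read 6.10, 6.57 and 6.07 on SCARKO-jsd arrays 1, 2 and 3, against 5.16, 5.39 and 5.51 on jsd arrays 1, 2 and 3 (log2 expression). Every SCARKO-jsd array was above every jsd array, and SCARKO-jsd 2 was the highest. The group means were 6.24 ± 0.28 in SCARKO-jsd and 5.35 ± 0.18 in jsd testes (SD, n = 3 each). The log2 fold change was 0.89 ± 0.17 (SE), 1.85-fold, with a 95% interval of 0.49 to 1.29. It did not pass the test over all probe sets (limma, Benjamini-Hochberg adjusted p = 0.121), where it was 513th of 45037 by p. An exact two-sided permutation test over the arrays gave 0.1, the smallest p that 3 arrays against 3 allow. No other probe set reads Dnmt3l, so its values could not be set beside another reading of the gene. Whether the probes of 1425035_s_at also match other transcripts was not tested.

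Whether Dnmt3l was called depended on the setting. Without SCARKO-jsd 2 its log2 fold change was 0.73 ± 0.12 (SE) and it was called, the only one of the 20 (limma, Benjamini-Hochberg adjusted p = 0.0417), in a fit that called 1.39% of all probe sets. It was also called when the probe sets of each gene were averaged, which leaves 18193 genes to test (adjusted p = 0.0326, 1.90% of genes called), and with arrays weighted by their scatter (0.0227, 2.82% of probe sets called). Its adjusted p without each array in turn lay between 0.0417 and 0.485, and the log2 fold change between 0.73 and 0.98. The jsd mean lay under the limit for dim probe sets, 5.69, which is the 40th percentile of all probe set means, so the size of the fold is uncertain. In whole testis RNA, more cells of a type and more RNA per cell cannot be told apart.

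**Figure D2:**
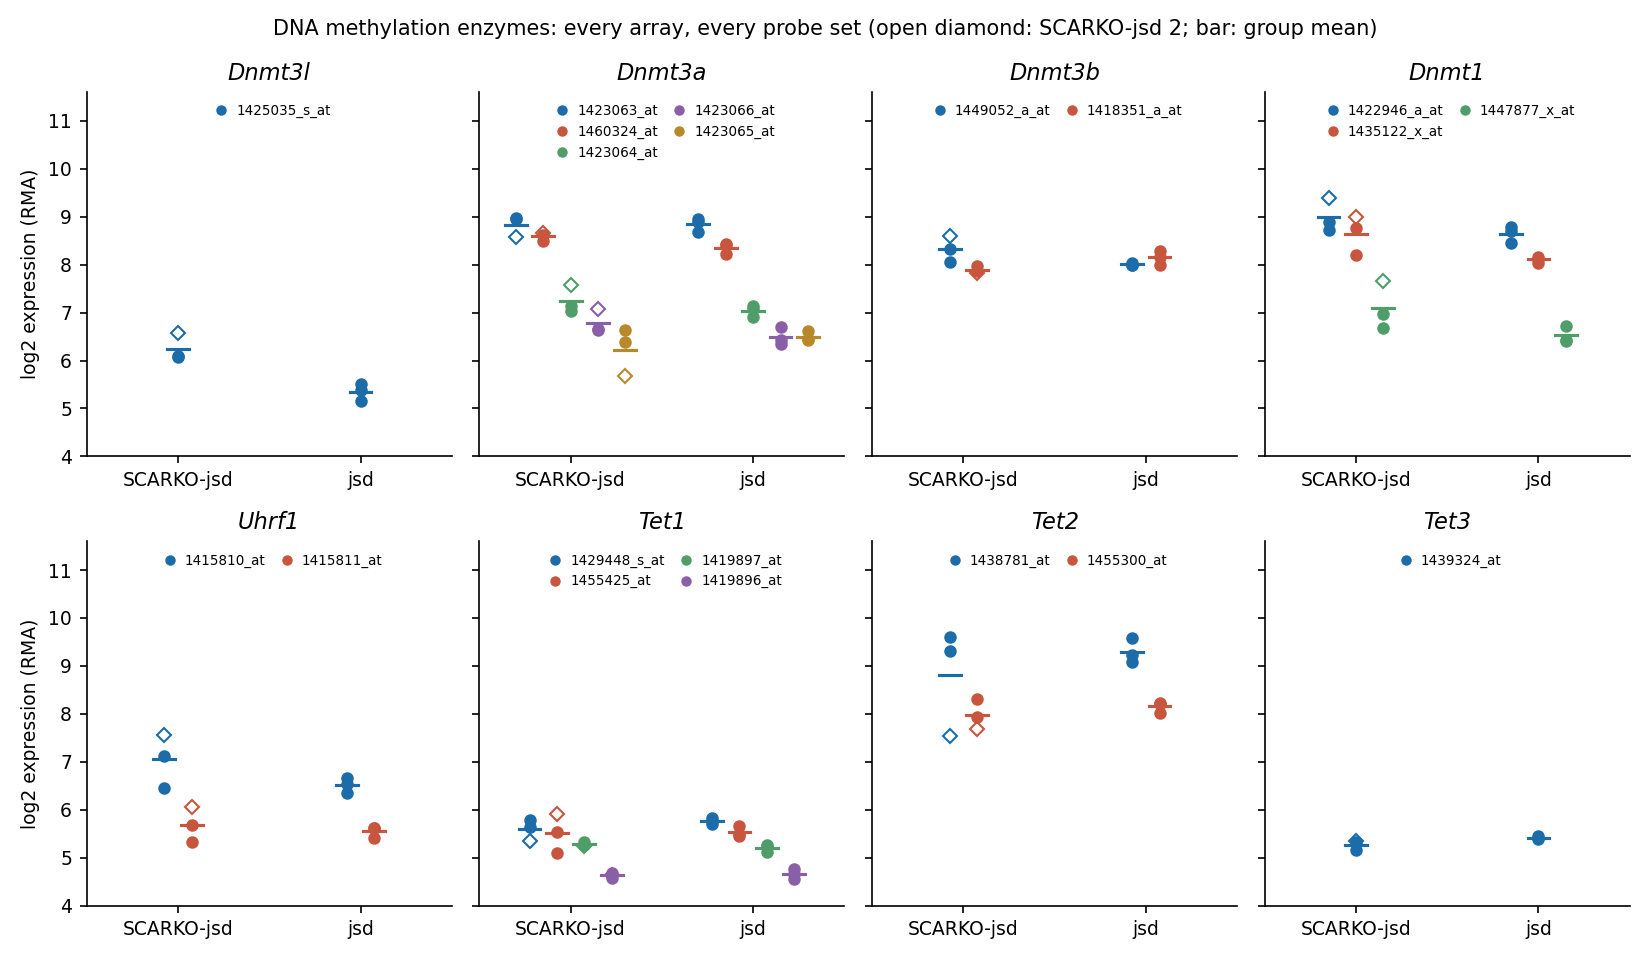
Log2 expression of each probe set on every array, SCARKO-jsd left and jsd right in each panel, with bars at the group means and SCARKO-jsd 2 as an open diamond. The groups are separate for Dnmt3l, and the SCARKO-jsd 2 value of Tet2 1438781_at, 7.54, lies below all the others of that probe set.

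Dnmt3a, which methylates new sites in germ cells and somatic cells, has 5 probe sets, and their differences went both ways. The brightest, 1423063_at, read 8.95, 8.57 and 8.97 on SCARKO-jsd arrays, against 8.88, 8.68 and 8.95 on jsd arrays. The groups overlapped and their means differed by -0.009 ± 0.14 (SE) on the log2 scale, with a 95% interval of -0.35 to 0.33. Probe set 1460324_at read 8.49, 8.65 and 8.63 on SCARKO-jsd arrays, against 8.42, 8.22 and 8.41 on jsd arrays. Here the groups did not overlap, with a log2 fold change of 0.24 ± 0.095 (limma, Benjamini-Hochberg adjusted p = 0.464), and 0.21 without SCARKO-jsd 2 (0.454). The 3 dimmer probe sets had log2 fold changes of 0.21 for 1423064_at, 0.30 for 1423066_at and -0.27 for 1423065_at, all with overlapping groups. Without SCARKO-jsd 2 these became 0.04, 0.16 and 0.0098, and the brightest probe set was at 0.12.

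Dnmt3b, the other new-site methyltransferase, whose transcripts are known to be spliced in several ways, has 2 probe sets whose differences had opposite signs, without a call. Probe set 1449052_a_at read 8.05, 8.60 and 8.33 on SCARKO-jsd arrays, against 8.02, 7.993 and 7.995 on jsd arrays. Probe set 1418351_a_at read 7.86, 7.82 and 7.98 on SCARKO-jsd arrays, against 8.29, 7.998 and 8.17 on jsd arrays. The first was higher and the second lower on every SCARKO-jsd array than on every jsd array. The margins were small, 0.027 between SCARKO-jsd 1 and jsd 1 in the first and 0.018 between SCARKO-jsd 3 and jsd 2 in the second. The log2 fold changes were 0.32 ± 0.14 and -0.26 ± 0.10 (SE), and neither passed the test (limma, Benjamini-Hochberg adjusted p = 0.518 and 0.453). Without SCARKO-jsd 2 they were 0.19 and -0.23.

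The gap between these 2 probe sets of Dnmt3b, taken within each array, was 0.19, 0.78 and 0.35 in SCARKO-jsd 1, 2 and 3, against -0.27, -0.005 and -0.17 in jsd 1, 2 and 3. Every SCARKO-jsd array had a larger gap than every jsd array; the place of 0 has no meaning, since levels of different probes are not comparable. The mean gap was 0.44 ± 0.30 in SCARKO-jsd and -0.15 ± 0.13 in jsd testes (SD, n = 3 each), a difference of 0.59 with a 95% interval of 0.16 to 1.02, and of 0.42 without SCARKO-jsd 2. It did not pass when all 9010 genes with more than 1 probe set were tested for unequal change (limma diffSplice, Benjamini-Hochberg adjusted p = 0.393, unadjusted p = 0.00893), where 0.588% of genes passed (1.12% without SCARKO-jsd 2, with Dnmt3b at 0.375) and 6.29% had an unadjusted p under 0.05. A limma fit on the gaps of all 30372 pairs of probe sets, added after the data were seen, gave an adjusted p of 0.518 for Dnmt3b and called 0 pairs, while 2283 pairs, 7.52%, had an unadjusted p under 0.05. Among the 22 pairs within the enzymes the groups did not overlap for 3. These were the pairs of Dnmt3b and Uhrf1 and 1 pair of dim probe sets of Tet1. The share of all 30372 pairs without overlap was not counted, so this count has no background of its own. Among all single probe sets, 16.9% did not overlap. For each of the 3 pairs the exact permutation p adjusted over the 22 pairs was 0.55. No other enzyme had an unadjusted diffSplice p under 0.2.

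**Figure D3:**
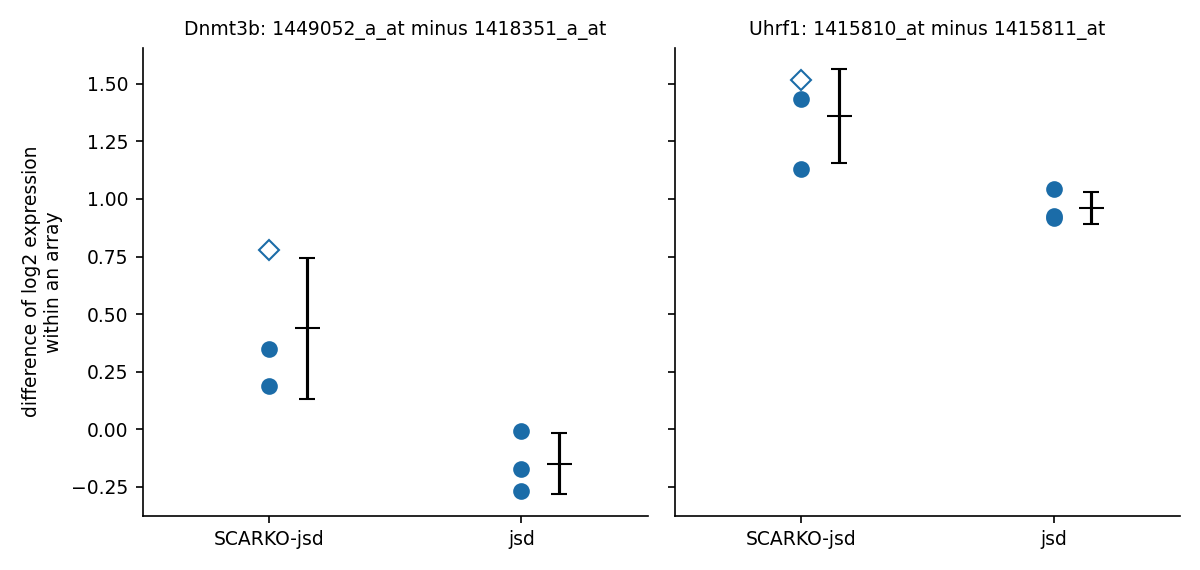
Difference of log2 expression between the probe sets of Dnmt3b (left panel) and of Uhrf1 (right panel) within each array, SCARKO-jsd left and jsd right, with means and SD (n = 3 each) and SCARKO-jsd 2 as an open diamond. In both panels the 3 SCARKO-jsd arrays lie above the 3 jsd arrays, by 0.59 for Dnmt3b and 0.40 for Uhrf1 in mean, and the place of 0 has no meaning.

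Dnmt1, the maintenance methyltransferase, was higher in mean on each of its 3 probe sets, without a call. Probe set 1422946_a_at read 8.72, 9.39 and 8.89 on SCARKO-jsd arrays, against 8.71, 8.78 and 8.45 on jsd arrays. SCARKO-jsd 2 and SCARKO-jsd 3 lay above the jsd arrays, and SCARKO-jsd 1 lay among them. For 1435122_x_at the values were 8.19, 8.99 and 8.76 on SCARKO-jsd arrays, against 8.16, 8.12 and 8.04 on jsd arrays. That probe set did not overlap between the groups, but SCARKO-jsd 1 cleared jsd 1 by only 0.03. The log2 fold changes were 0.35 ± 0.19, 0.54 ± 0.20 and, for 1447877_x_at, 0.58 ± 0.25 (SE), with limma Benjamini-Hochberg adjusted p = 0.604, 0.422 and 0.513. Without SCARKO-jsd 2 they were 0.16, 0.37 and 0.30. Names ending in x_at mark probe sets with probes that can also match other transcripts, which makes the last 2 less specific. Specificity was not tested for any probe set of the enzymes, that of Dnmt3l included.

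Uhrf1, the reader of half-methylated DNA that brings Dnmt1 to replicated strands, varied more among SCARKO-jsd arrays than among jsd arrays. Its brighter probe set, 1415810_at, read 6.46, 7.56 and 7.12 on SCARKO-jsd arrays, against 6.53, 6.66 and 6.34 on jsd arrays. SCARKO-jsd 1 lay within the jsd range and the other SCARKO-jsd arrays above it. The SD was 0.56 in SCARKO-jsd and 0.16 in jsd testes (n = 3 each), and the log2 fold change of 0.54 ± 0.27 (SE) did not pass (limma, Benjamini-Hochberg adjusted p = 0.577). It was 0.28 without SCARKO-jsd 2. The dim probe set 1415811_at had a log2 fold change of 0.14 ± 0.18, which was -0.04 without SCARKO-jsd 2. The gap between the probe sets was wider on every SCARKO-jsd array (1.13, 1.52 and 1.43) than on every jsd array (0.92, 1.04 and 0.93), a difference of 0.40 with a 95% interval of 0.07 to 0.72, and of 0.32 without SCARKO-jsd 2. It did not pass by the limma fit on gaps (Benjamini-Hochberg adjusted p = 0.566, unadjusted p = 0.0238) or by diffSplice (unadjusted p = 0.278), and the exact permutation p was 0.1.

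Among the oxidising enzymes, only Tet2 was bright. Its probe set 1438781_at read 9.60, 7.54 and 9.31 on SCARKO-jsd arrays, against 9.08, 9.23 and 9.59 on jsd arrays. SCARKO-jsd 2 was over 1.5 log2 units under the rest, and the other arrays of the genotypes overlapped. The log2 fold change was -0.48 ± 0.52 (SE) with all arrays and 0.15 ± 0.17 without SCARKO-jsd 2 (limma, Benjamini-Hochberg adjusted p = 0.806 and 0.75). The second probe set, 1455300_at, read 8.32, 7.68 and 7.94 on SCARKO-jsd arrays, against 8.22, 8.02 and 8.23 on jsd arrays. It too was lowest in SCARKO-jsd 2, with a log2 fold change of -0.18 that was -0.03 without that array.

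Tet3 and Tet1 were dim. Tet3, on 1439324_at, read 5.16, 5.34 and 5.32 on SCARKO-jsd arrays, against 5.42, 5.39 and 5.45 on jsd arrays. Every SCARKO-jsd array was below every jsd array, but the gap between the nearest was 0.05 and the log2 fold change -0.15 ± 0.085 (SE, limma Benjamini-Hochberg adjusted p = 0.638), and -0.18 without SCARKO-jsd 2. The 4 probe sets of Tet1 averaged between 4.65 and 5.68 over the 6 arrays, all under the dim limit, with log2 fold changes of -0.17 to 0.08, or -0.22 to 0.10 without SCARKO-jsd 2, and overlapping groups. Levels this low may not bound either gene well, which was not tested. Of the 20 probe sets 6 lay under the limit, those of Tet1 and Tet3 and 1 of Uhrf1.

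The intervals set how large a missed difference could be. Taking the end of each limma 95% interval that lies farther from 0, the bound was 1.27-fold to 1.81-fold for the probe sets of Dnmt3a, 1.59-fold and 1.43-fold for the probe sets of Dnmt3b, 1.75-fold to 2.28-fold for those of Dnmt1, 2.28-fold for Uhrf1 1415810_at, and 3.35-fold for Tet2 1438781_at. Without SCARKO-jsd 2 the bound for Tet2 1438781_at was 1.46-fold, that for Uhrf1 1415810_at 1.67-fold, and those for Dnmt3a, Dnmt3b and Dnmt1 1.21-fold to 1.37-fold, 1.36-fold to 1.41-fold and 1.37-fold to 1.68-fold.

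Other genes of the methylation pathway were followed by their brightest probe set, without a set test. Over all 18193 genes, 0.484% passed (45 higher and 43 lower), 13.2% had an unadjusted p under 0.05 by limma, and the median log2 fold change was 0.04. Among 16 measured partners and regulators of the methyltransferases none passed, with 3 at an unadjusted p under 0.05 and a median of 0.07. Hells, a chromatin remodeller needed for normal DNA methylation, had the smallest p and read 8.79, 9.86 and 9.36 on SCARKO-jsd arrays, against 8.47, 8.73 and 8.03 on jsd arrays. The groups did not overlap, with a log2 fold change of 0.93 ± 0.30 (SE, limma Benjamini-Hochberg adjusted p = 0.348). It was 0.66 without SCARKO-jsd 2 (0.264) and 0.47 as the mean of the probe sets of Hells (0.0621).

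Among 8 methyl-CpG binding proteins none passed and 2 had an unadjusted p under 0.05 by limma, with a median log2 fold change of 0.03. Mbd4, a glycosylase that repairs mismatches at CpG pairs, read 7.54, 7.06 and 7.72 on SCARKO-jsd arrays, against 6.88, 6.75 and 6.79 on jsd arrays. It was higher on each SCARKO-jsd array, least so on SCARKO-jsd 2, with a log2 fold change of 0.64 ± 0.17 (SE, limma Benjamini-Hochberg adjusted p = 0.261). Without SCARKO-jsd 2 it was called, at 0.83 (0.0163), while the mean of the probe sets of Mbd4 gave 0.24 (0.280). Among 15 TET partners and base excision repair genes none passed (2 at an unadjusted p under 0.05, median -0.0023), and Gadd45g, of a family linked to demethylation, had the smallest p (log2 fold change -0.34 ± 0.12, adjusted p = 0.379, and -0.38 without SCARKO-jsd 2). Of 14 genes of the methyl donor cycle none passed (2 at an unadjusted p under 0.05, median 0.12). Ahcy, which removes the product that inhibits methyltransferases, was the nearest, at 0.59 ± 0.14 (adjusted p = 0.206, and 0.44 without SCARKO-jsd 2).

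Genes linked to DNA methylation were followed as well, though methylation itself was not measured. The 22 measured germ line genes whose promoters are known to be methylated in somatic cells had a median log2 fold change of 0.99, against 0.04 over all genes, and 20 of the 22 were higher in SCARKO-jsd testes, where 61.7% of all genes were. By limma 19 had an unadjusted p under 0.05, all higher, against 8.56% of all genes on that side, and 1 passed after adjustment. That gene, Sycp3, of the synaptonemal complex of meiosis, read 8.02, 8.34 and 8.13 on SCARKO-jsd arrays, against 6.61, 7.03 and 6.90 on jsd arrays. It rose by 1.31 ± 0.14 (SE) on the log2 scale (limma, Benjamini-Hochberg adjusted p = 0.0339), and this call ended without any 1 array other than SCARKO-jsd 2 (adjusted p up to 0.181). Without SCARKO-jsd 2 the list median was 0.85, against 0.0003 over all genes. In that fit 4 genes of the list were called higher, against 159 of all 18193 genes. Several of these genes were already known to be higher in these samples, so the list is not independent evidence of its direction. Some of them, such as Sycp3, Dazl and Stra8, are also in the germ cell marker lists given below, so those lists are not separate from this one. The part of germ cell numbers in these values was not tested. The promoter windows of the genes of this list held a median of 20 CpG pairs.

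The mean log2 expression of these 22 genes was 7.35, 7.95 and 7.79 on SCARKO-jsd arrays 1, 2 and 3, against 6.88, 7.06 and 6.52 on jsd arrays 1, 2 and 3. The groups did not overlap, and SCARKO-jsd 1 was nearest to jsd, as it was for Uhrf1. Imprinted genes, whose active copy is set by methylation, held no called gene among 22 measured (4 at an unadjusted p under 0.05 by limma), with a median log2 fold change of 0.05. Mest, expressed from the paternal copy, had the smallest p, at 1.05 ± 0.17 (SE, limma Benjamini-Hochberg adjusted p = 0.0908), and was called without SCARKO-jsd 2 (0.95, 0.0489). Plagl1, an imprinted zinc finger gene named here after its values were seen, was called lower without that array (-0.62, adjusted p = 0.0364, against -0.44 and 0.410 with all arrays).

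**Figure D4:**
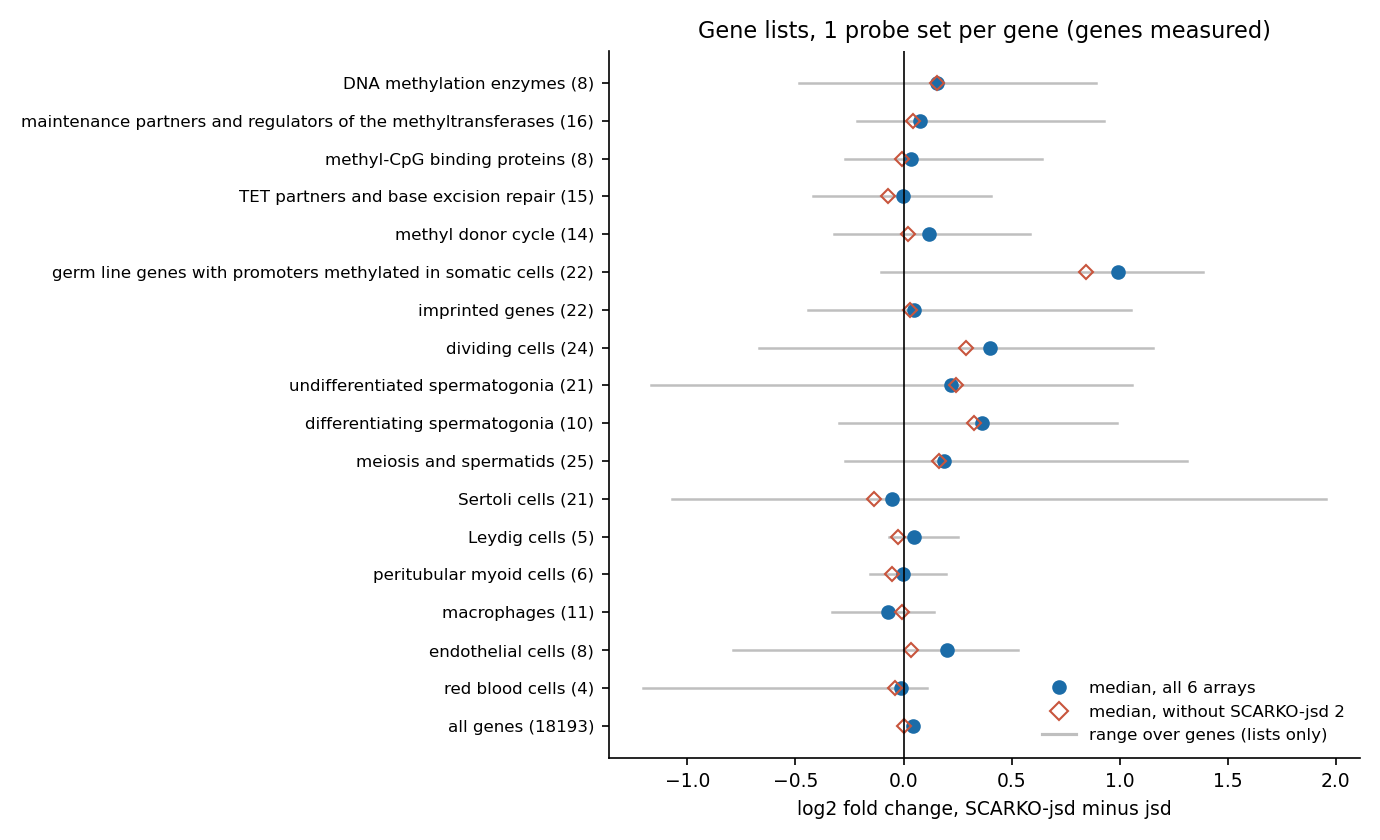
Median log2 fold change of each gene list with all arrays (circles) and without SCARKO-jsd 2 (open diamonds), with the range over the genes of a list as a grey line and the number of genes measured in brackets. The germ line genes methylated in somatic cells have a median of 0.99, and the medians of the DNA methylation enzymes (0.16, 1 probe set per gene) and of all genes (0.04) lie near 0.

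The levels of markers of the cells a testis can hold are given beside those of the enzymes. Markers of dividing cells, 24 measured and 22 above the dim limit, averaged 7.81, 8.46 and 8.19 on SCARKO-jsd arrays, against 7.80, 7.89 and 7.57 on jsd arrays, with SCARKO-jsd 1 inside the jsd range, as for the brightest probe sets of Uhrf1 and Dnmt1 but not for Dnmt1 1435122_x_at or Uhrf1 1415811_at. None passed, 11 had an unadjusted p under 0.05 by limma, 10 of them higher, and the smallest p was that of Cdk1, the kinase that starts mitosis, which went the other way (-0.67 ± 0.11 SE, limma Benjamini-Hochberg adjusted p = 0.0981, and 0.0344 without SCARKO-jsd 2). Markers of differentiating spermatogonia, 10 measured and 8 above the limit, averaged 7.63 to 8.07 on SCARKO-jsd arrays, against 7.28 to 7.57 on jsd arrays. None passed, with 5 at an unadjusted p under 0.05 by limma, all higher, against 8.56% of all genes on that side. Stra8, induced by retinoic acid before meiosis, was at 0.99 ± 0.21 (limma adjusted p = 0.157, and 0.91 without SCARKO-jsd 2). The part of these cells in the values of Dnmt3l, Uhrf1 and Dnmt1 was not tested.

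Undifferentiated spermatogonia, with 21 markers measured and 17 above the limit, averaged 7.56 to 7.88 on SCARKO-jsd arrays, against 7.36 to 7.55 on jsd arrays. None passed, with 12 at an unadjusted p under 0.05 by limma, 9 of them higher, and Uchl1, a ubiquitin hydrolase of spermatogonia, was at 0.68 ± 0.11 (SE, limma Benjamini-Hochberg adjusted p = 0.0840, and 0.0464 without SCARKO-jsd 2). The other 3 were lower, and the largest of them, Id4, a regulator of spermatogonial stem cells named after its values were seen, was at -1.17 ± 0.19 (0.0945) and at -1.36 without SCARKO-jsd 2 (0.00744). For meiosis and spermatids 25 markers were measured and 13 lay above the limit. They averaged 6.19 to 6.503 on SCARKO-jsd arrays, against 5.996 to 6.13 on jsd arrays, and Sycp3 was the 1 called. By limma 8 of them had an unadjusted p under 0.05, all higher. Sertoli cell markers, all 21 measured above the limit, averaged 10.09 to 10.37 on SCARKO-jsd arrays, against 10.08 to 10.27 on jsd arrays. None passed, 5 had an unadjusted p under 0.05 by limma, 3 of them higher, and the median log2 fold change was -0.05. Their smallest p was that of Sox8, a transcription factor of Sertoli cells, at -1.07 ± 0.17 (adjusted p = 0.0844, and 0.0482 without SCARKO-jsd 2). The largest difference was that of the keratin gene Krt18, named after its values were seen, at 1.95 ± 0.44 (0.190).

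Of the remaining cell types, Leydig, peritubular myoid and macrophage markers held no called gene among 5, 6 and 11 measured, with 0, 0 and 1 at an unadjusted p under 0.05 by limma. Their genes with the smallest p were Hsd17b3, which makes testosterone (0.25 ± 0.13 SE), Tagln of smooth muscle (0.20 ± 0.083) and Fcer1g of myeloid cells (-0.33 ± 0.078). Endothelial markers held none among 8, where 2 had an unadjusted p under 0.05 and Kdr, the VEGF receptor of endothelium, was at -0.79 ± 0.17 (limma, Benjamini-Hochberg adjusted p = 0.166, and 0.0221 without SCARKO-jsd 2). The other 7 endothelial markers were higher in mean, with a list median of 0.20, and Vwf, von Willebrand factor, named after its values were seen, was at 0.53 ± 0.17 (0.352). Of 4 red cell genes 1 lay above the dim limit, Alas2, the heme synthesis enzyme. Alas2 fell by 1.21 ± 0.098 on the log2 scale (limma, Benjamini-Hochberg adjusted p = 0.0162). That call ended without any 1 array other than SCARKO-jsd 2 (adjusted p up to 0.151). The dim genes Hba-a1, Slc4a1 and Epb42, named after their values were seen, were at 0.05, 0.11 and -0.08. The list median was -0.01.

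**Figure D5:**
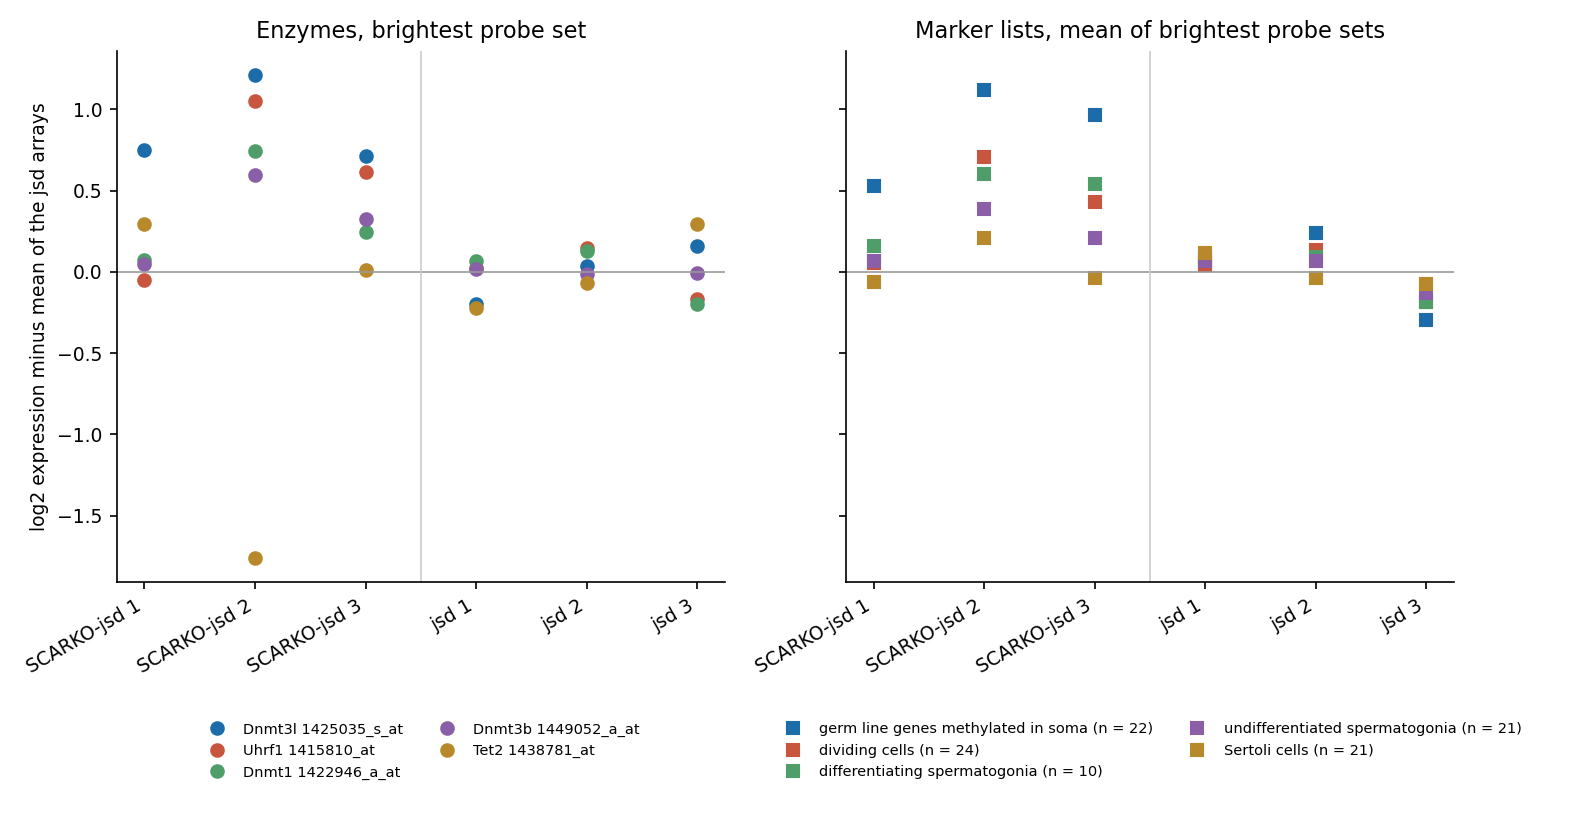
Log2 expression on each array minus the mean of the jsd arrays, for the brightest probe set of 5 enzymes (left panel) and for the mean of 5 marker lists (right panel), with the SCARKO-jsd arrays left of the line. Uhrf1, Dnmt1 and Dnmt3b are near 0 in SCARKO-jsd 1 and highest in SCARKO-jsd 2. All 5 marker lists, that of Sertoli cells included, are also highest in SCARKO-jsd 2, which was the highest array for 39.4% of all probe sets. Dnmt3l lies above 0 in all 3 SCARKO-jsd arrays and Tet2 is low in SCARKO-jsd 2.

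The genes with the pattern most like each enzyme over the 6 arrays were found by the root mean square difference of centred log2 values, among 12972 genes above the dim limit, for the 5 enzymes whose brightest probe set spanned at least 0.5 log2 units. For Uhrf1 these were Mcm2, a subunit of the replication helicase, at 0.065, Lig1, the DNA ligase of replication, at 0.074, and Tdrkh, a Tudor domain protein of germ cells, at 0.075. For Dnmt1 they were Tdrd5, another germ cell Tudor protein (0.038), Pwwp3a (0.042) and Gal, which encodes the neuropeptide galanin (0.047). Dnmt3b was closest to Gpr146 (0.022), Cep112 (0.030) and the vitamin D receptor gene Vdr (0.030), and Dnmt3l to Fkbp11 (0.077), Epb41l1 (0.078) and Gch1 (0.081). Tet2, whose pattern is the low value of SCARKO-jsd 2, was closest to Rbm39, a splicing factor gene (0.056), Rad18 (0.082) and Scai (0.090). For Uhrf1, Dnmt1, Dnmt3b and Dnmt3l that array was the highest, so it weighs on their patterns too. How often matches this close arise by chance among 12972 genes on 6 arrays was not tested.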

How the data were processed

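Total RNA of 6 testis samples was made into biotinylated cRNA and hybridised to arrays, per the labels' protocols. The authors deposited 1 log2 value per probe set and array, computed with affy by RMA, as the submitters' processing notes record, with versions not given in the sources used here. They ran from 2.58 to 14.84 with 0 missing, and array medians from 6.26 to 6.41. No 2 arrays were identical. RMA sets arrays to a shared distribution, so a change shared by most transcripts would not show.

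GEO's platform annotation gave 1 symbol for 34945 tested probe sets, and the 20 probe sets of the enzymes kept their symbol in RefSeq (GRCm38.p6). The 64 controls were left out, and 1 gene is not reported here. All other probe sets were fitted with limma 3.58.1 (lmFit, eBayes, genotype only, two-sided) in R 4.3.3, with Benjamini-Hochberg adjustment over all of them and 0.05 as the threshold. No filter was applied, so that every probe set of the enzymes was tested. Unequal change among probe sets of a gene was tested with limma's diffSplice. A gene in a list was followed by its brightest probe set. Named are all probe sets of the enzymes, up to 4 called genes of each list (or the 1 with the smallest p), the 3 genes of most similar pattern, Utp14b and Rhox5. The members and lists were chosen with earlier results of these data known.

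The fits were tested on simulated data with known changes. There the fit over all probe sets called 19.4% of 1.5-fold and 74.6% of 2-fold changes, and 3.2% of its calls were false. Of the genes called, 22.0% were false with diffSplice, more than its threshold allows, and 8.72% with the fit on gaps. Same-numbered arrays were not taken as pairs, since the numbers are not said to mark pairs. Deviations from the group means correlated at -0.27, 0.24 and 0.35 for numbers 1, 2 and 3. Between unlike numbers they correlated at -0.43 to 0.38. With 3 arrays per group these correlations are not independent, so they cannot decide whether arrays were paired. Alternatives were filters on dim probe sets (lowest 40% or 60%), a single probe set for each gene, averaging the probe sets of each gene, a replicate block, arrayWeights, trend and robust eBayes, centring on medians, repeated quantile normalization, leaving out each array, and thresholds of 0.01 and 0.1. Figures used matplotlib 3.10.9 in Python 3.11.15. For arrays, their number limits the precision.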

Additional observations from a re-analysis of the deposited data

How the results depend on the processing

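The count of called probe sets, 126, moved with many settings. With 1 probe set per gene and dim genes left out limma called 390 genes (194 higher and 196 lower), with probe sets averaged per gene 346, with trend and robust 215, with arrayWeights 1269, with median centring 63, and at thresholds of 0.01 and 0.1 15 and 372. With each array left out the count lay between 0, without jsd 1 (2959 at an unadjusted p under 0.05), and 627, without SCARKO-jsd 2. It was 3 without jsd 2, 14 without SCARKO-jsd 3, 19 without SCARKO-jsd 1 and 25 without jsd 3. The cause was not tested. With the replicate block the count was 0 (limma, 4141 at an unadjusted p under 0.05), though the numbers are not said to mark pairs. With that block 0 of the 20 probe sets were called (4 at an unadjusted p under 0.05 by limma). The calls of Sycp3 and Alas2 ended there (limma, adjusted p = 0.107 and 0.113). Of the enzymes, 1 probe set, Dnmt3l, was called with the mean of probe sets (where fewer genes are tested), with arrayWeights and without SCARKO-jsd 2, and with each other array left out 0 were called, a range of 0 to 1. Dnmt3l itself was not among the genes tested with the 60% filter or with 1 probe set per gene and dim genes left out, so the 0 of those settings says nothing of it. The arrayWeights were those of the gene-by-gene method.

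Genes whose probe sets changed unequally numbered 53 by diffSplice, 19 with the filter on dim probe sets, 21 with median centring, 18 with the replicate block, 22 at a threshold of 0.01, 4 to 101 with each array left out, and 0 by the fit on gaps within an array (2283 pairs at an unadjusted p under 0.05).

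Of the 186 log2 fold changes of the enzymes that a setting moved at all, 169 kept their direction. Filters, thresholds, trend and robust eBayes and the block leave the fold change as it is and were not counted. The 17 that changed sign were not called. Dnmt3a 1423063_at (-0.009) was 0.092 with the mean of probe sets, 0.035 with median centring, 0.13 with arrayWeights and -0.088 to 0.12 with each array left out. Tet1 1419896_at was 0.018 with median centring and -0.081 to 0.027 with each array left out, and Tet1 1455425_at was 0.023 with median centring, 0.015 with a further quantile normalization, and -0.22 to 0.19. Tet2 1438781_at was 0.00045 with arrayWeights and -0.87 to 0.15 with each array left out. The ranges with each array left out were -0.47 to 0.0098 for Dnmt3a 1423065_at, -0.0385 to 0.32 for Uhrf1 1415811_at and -0.078 to 0.25 for Utp14b. The probe sets of Tet1 and Tet3 lay under the dim limit. How close their signal is to background was not tested, so they may not show small differences.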
